A study of Mus musculus with 32 samples.

Results

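The transcriptome of brown fat from the interscapular depot (iBAT), which burns fuel to warm the animal, was compared between ZT15 and ZT9. *Zeitgeber* time (ZT) counts hours from lights on, and lights went off at ZT12, so ZT9 fell 3 h before the dark (active) phase began and ZT15 fell 3 h after it began. The comparison held 8 of the 32 libraries of the series, 4 mice at each time point and 1 library per mouse. All mice were non-fasted, chow-fed, male C57BL/6J animals, 10 weeks old and kept in mild cold, with no gene alteration and no drug. The animals at ZT9 and ZT15 therefore differed by label only in the time at which they were killed, and clock time, light and what had been eaten by then cannot be told apart. The 4 ZT12 libraries came from the same sequencing lane (lane 3) and were used as the time point in between.

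The molecular clock of mammalian cells is a loop in which BMAL1 (encoded by *Arntl*) and CLOCK switch on the *Per*, *Cry* and *Nr1d* genes, whose products then switch the loop off again. The REV-ERB proteins encoded by *Nr1d1* and *Nr1d2* repress *Arntl* through a DNA element that the ROR receptors use to activate it. Brown fat burns fatty acids and glucose for heat through UCP1, takes up fuel that circulates after meals, and stores it as triglyceride and glycogen. The heat-shock genes encode chaperones that fold proteins, and heat shock factor 1 activates them through repeats of the letters GAA and TTC.

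Totals for the 8 libraries ran from 16648905 to 17839159 counts, and TMM scaling factors lay between 0.963 and 1.09. Mitochondrially encoded genes took 25.1% ± 3.22 (SD, n = 4) of the counts at ZT9 and 23.9% ± 1.88 (SD, n = 4) at ZT15, a difference that did not pass an exact permutation test (two-sided, p = 0.6, smallest possible 0.0286). The defining markers of brown fat were present in all 8 libraries: *Ucp1* lay between 1134 and 4318 CPM (counts relative to the scaled library size) and *Cidea* between 1529 and 2132 CPM. Skeletal muscle markers differed between libraries of the same time point, from 59.4 to 1862 summed CPM over 12 genes at ZT9 and from 743 to 7040 at ZT15, and none of the 12 passed the test. Replicate 3 of ZT9 held 278 summed CPM of 6 macrophage markers against 59.1 to 87.8 in the other ZT9 mice. Replicate 1 of ZT15 held 24753 summed CPM of 22 lipogenic genes against 80102 to 87032 in the other ZT15 mice, most of it from *Scd1* and *Fasn*. Replicate 2 of ZT15 had the lowest heat-shock levels of its group. Where leaving out 1 of these 3 libraries changed the count of a list, the changed count is given beside it.

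Promoter letters are shown first for genes of the 2 groups described most closely below, the heat-shock genes and the clock. RefSeq windows (GRCm38.p6, 250 bases before to 50 after each start) were found for 10910 of the 15505 tested genes. The heat shock element was searched as GAA, TTC and GAA with any 2 bases between each, the ROR/REV-ERB element as AA, any base and TAGGTCA, and the E-box, to which CLOCK and BMAL1 bind, as CACGTG, all on both strands. The printed stretches were chosen because they hold a match to the element named with each, which is in capitals, and because the gene changed. The stretch of *Hsph1* also holds an E-box, left in lower case.
Hsph1, chr5:149636286-149636435, minus strand, heat shock element: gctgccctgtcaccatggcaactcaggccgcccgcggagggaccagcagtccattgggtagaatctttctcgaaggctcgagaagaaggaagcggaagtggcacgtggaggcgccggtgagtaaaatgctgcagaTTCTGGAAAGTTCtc
Chordc1, chr9:18292147-18292296, plus strand, 3 overlapping heat shock elements: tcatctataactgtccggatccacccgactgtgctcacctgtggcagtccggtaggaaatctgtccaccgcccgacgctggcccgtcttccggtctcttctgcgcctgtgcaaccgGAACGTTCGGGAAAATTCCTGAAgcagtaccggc
Arntl, chr7:113207528-113207557, plus strand, ROR/REV-ERB element: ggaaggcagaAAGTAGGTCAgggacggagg
Ciart, chr3:95882199-95882348, minus strand, 3 E-boxes: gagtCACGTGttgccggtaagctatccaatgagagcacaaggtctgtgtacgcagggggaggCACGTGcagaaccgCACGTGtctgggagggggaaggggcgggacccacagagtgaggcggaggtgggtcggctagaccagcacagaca
Cry1, chr10:85185025-85185174, minus strand, E-box: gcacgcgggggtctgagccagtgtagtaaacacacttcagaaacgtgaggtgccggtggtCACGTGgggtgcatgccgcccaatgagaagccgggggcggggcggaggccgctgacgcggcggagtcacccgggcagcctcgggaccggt

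The match in *Hsph1* began 16 or 37 bases after the start, by which of 2 RefSeq starts is taken, those in *Chordc1* 4 bases before and 2 and 7 bases after it, and that in *Arntl* 28 bases after it. The E-boxes of *Ciart* began 116, 58 and 44 bases before the start and that of *Cry1* 60 bases before. The heat shock element stood in 0.614% of all windows (67 genes), in 7 of 481 windows of genes higher at ZT15 (1.46%) and in 1 of 447 of genes lower at ZT15 (0.224%). Of the heat-shock list 4 of 13 windows held it, those of *Chordc1*, *Hsph1*, *Hspd1* and *Hspe1*, the last pair by the same stretch of DNA, which both windows cover. The E-box stood in 11.4% of all windows, in 11.9% of genes higher and 15.2% of genes lower at ZT15, and in 5 of 19 windows of clock genes (*Bhlhe41*, *Ciart*, *Cry1*, *Per1* and *Tef*) and 2 of 13 of the heat-shock list (*Hspd1* and *Hsph1*). The ROR/REV-ERB element stood in 19 windows (0.174%), of which *Arntl* was the only clock gene. These are letter matches and not measured binding.

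Across all genes, 1213 of 15505 (7.82%) differed between ZT15 and ZT9 at a Benjamini-Hochberg (BH) adjusted p under 0.05, of which 635 (4.1%) were higher and 578 (3.73%) lower at ZT15. Most changes were small: the median change among the 1213 genes was 1.41-fold, and 199 genes (100 higher, 99 lower) changed over 2-fold. The 4 ZT15 mice did not overlap the 4 ZT9 mice for 870 of the 1213 genes (474 higher, 396 lower), against 1560 (10.1%) of all tested genes (5.38% higher, 4.68% lower). The count depended on the libraries that estimate the spread. It was 499 when only the 12 lane 3 libraries were fitted and 182 (118 higher, 64 lower) with the 8 libraries alone, and 457 genes (270 higher, 187 lower) kept their call in each of the 8 fits that left out 1 mouse.

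**Figure D1:**
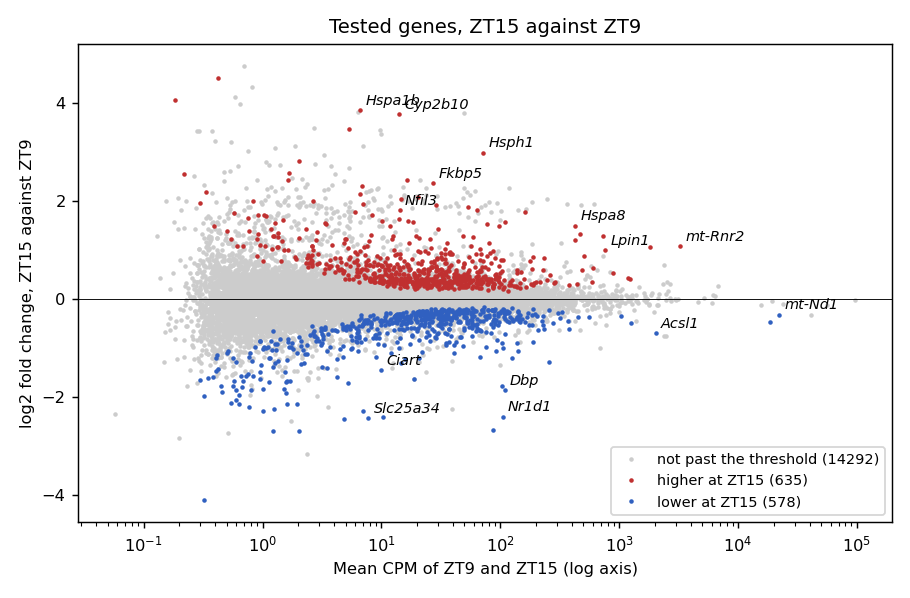
Mean CPM of ZT9 and ZT15 (log axis) against the log2 fold change of ZT15 over ZT9 for each of the 15505 tested genes. Red points are the 635 genes higher and blue points the 578 genes lower at ZT15 (BH-adjusted p under 0.05), with examples named; heat-shock genes and Fkbp5 lie at the top and Nr1d1 and Dbp at the bottom.

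Among clock genes, the repressor *Nr1d1* and the output gene *Dbp* fell. *Nr1d1* (chr11:98767932-98775333) read 142, 169, 205 and 188 CPM in the ZT9 mice and 35.4, 35.6, 31.9 and 30.2 CPM in the ZT15 mice. Every ZT15 mouse lay below every ZT9 mouse, and the fall of 5.28-fold in the means (log2 fold change -2.40 ± 0.23 SE, adjusted p = 7.88e-07) was the strongest call among the clock genes. At ZT12 the 4 mice read 154, 111, 117 and 114 CPM, nearer to ZT9 than to ZT15. *Dbp*, a D-box activator that passes clock time on to metabolic genes, read 130.1, 138, 213 and 202 CPM at ZT9 and 52.5, 45.6, 49.7 and 39.7 CPM at ZT15. The groups did not overlap, and the log2 fold change was -1.86 ± 0.23 (SE, adjusted p = 1.45e-05).

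*Nr1d2*, the paralog of *Nr1d1*, read 127, 119.6, 142 and 151 CPM at ZT9 and 90.7, 76.8, 69.2 and 54.7 CPM at ZT15 (log2 fold change -0.89, adjusted p = 0.00269). *Ciart*, a repressor of CLOCK and BMAL1 whose promoter with 3 E-boxes is printed above, read 12.2, 8.57, 17.6 and 19.5 CPM at ZT9 and 4.41, 7.39, 4.72 and 4.58 CPM at ZT15. Both fell without overlap, *Ciart* by 1.45 on the log2 scale (adjusted p = 0.00102), and neither had a lower mean at ZT12 than at ZT9. The ZT12 means of *Nr1d2* and *Ciart* were 136 and 17.8 CPM, against 135 and 14.5 CPM at ZT9.

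Other parts of the repressor arm moved the opposite way. *Per2* read 31.5, 40.1, 64.4 and 64.0 CPM at ZT9 and 121, 91.8, 117 and 109 CPM at ZT15 (log2 fold change 1.13 ± 0.22 SE, adjusted p = 0.00195). *Cry1*, which keeps the loop off late in the cycle, read 11.0, 11.4, 12.6 and 13.7 CPM at ZT9 and 24.9, 30.7, 30.9 and 29.4 CPM at ZT15 (log2 fold change 1.25 ± 0.15 SE, adjusted p = 7.93e-06). Neither overlapped between the groups. The ZT12 mice read 76.5 to 92.5 CPM for *Per2* and 13.0 to 18.0 CPM for *Cry1*. *Csnk1e*, a kinase that marks PER proteins for decay, rose by 0.59 on the log2 scale (adjusted p = 0.00523), from a mean of 29.0 to 43.7 CPM. *Ciart* and *Cry1*, whose printed stretches both hold the E-box, thus moved in opposite directions.

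*Nfil3*, which competes with DBP for D-boxes, read 4.66, 6.60, 7.14 and 6.89 CPM at ZT9, 12.0, 11.0, 11.8 and 15.9 CPM at ZT12 and 25.3, 18.1, 19.6 and 25.5 CPM at ZT15. The 3 groups of mice did not overlap (log2 fold change 1.81 ± 0.25 SE, adjusted p = 6.12e-05). On the activator side *Arntl* read 2.56, 0.984, 0.886 and 0.544 CPM at ZT9 and 3.21, 2.95, 2.91 and 4.34 CPM at ZT15 (log2 fold change 1.42 ± 0.31 SE, adjusted p = 0.00538). The mean of *Arntl* was 1.15 CPM at ZT12 and 1.24 CPM at ZT9, so among ZT9, ZT12 and ZT15 it was highest at the time point at which *Nr1d1* was lowest. The call of *Arntl* was lost with lane 3 alone (adjusted p = 0.0596) and with the 8 libraries alone (adjusted p = 0.134).

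Over all tested genes 4.1% were higher and 3.73% lower. By list, 2 of 5 clock activators rose, 3 of 11 repressors rose and 3 fell, and of 9 output genes *Nfil3* rose and *Dbp* fell. These counts were the same in each of the 8 fits that left out 1 mouse, except that without 1 mouse 2 outputs fell. With lane 3 alone 1 activator rose, and with the 8 libraries alone 1 activator and 2 repressors rose, *Csnk1e* losing its call (adjusted p = 0.0693), while the other clock counts were the same. The median log2 fold changes were 0.21, -0.13 and 0.07, beside 0.00 over all tested genes. *Per1* (log2 fold change -0.74, adjusted p = 0.13), *Per3* (-0.18, adjusted p = 0.611), *Hlf* (-0.40, adjusted p = 0.101) and *Tef* (-0.05, adjusted p = 0.885) did not pass the test. Of these *Per1* was highest at ZT12, at 109 to 140.1 CPM, against 46.9 to 117 CPM at ZT9 and 36.2 to 72.2 CPM at ZT15.

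**Figure D2:**
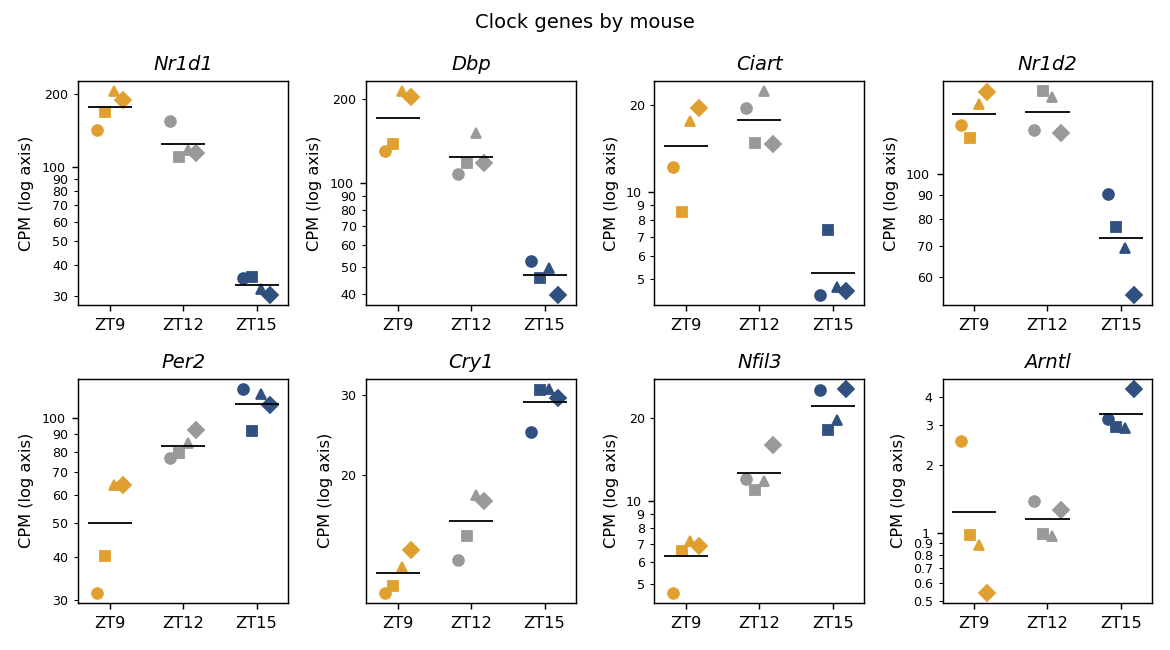
CPM (log axis) of 8 clock genes in each of the 4 mice at ZT9, ZT12 and ZT15; circles, squares, triangles and diamonds are replicates 1 to 4 and bars are means. Nr1d1, Dbp, Ciart and Nr1d2 fell to ZT15 and Per2, Cry1, Nfil3 and Arntl rose, without overlap between the ZT9 and ZT15 mice.

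Of the gene lists, which were chosen with earlier results of these data known, the one with the largest share of members that rose was that of heat-shock genes. Of 16 tested members 13 rose, beside 4.1% of all tested genes, none fell, and the median log2 fold change was 1.04. *Hsph1*, the co-chaperone HSP110 whose start region is printed above, read 18.8, 17.1, 13.5 and 15.0 CPM at ZT9 and 151, 63.1, 145 and 149 CPM at ZT15. All ZT15 mice lay above all ZT9 mice, with replicate 2 at less than any of the other 3, and the log2 fold change was 2.98 ± 0.35 (SE, adjusted p = 6.5e-06, 7.89-fold in the means). At ZT12 the gene stood at 15.1 to 29.2 CPM, close to its ZT9 level.

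*Hspa1b*, the inducible HSP70, read 0.757, 0.637, 1.33 and 0.665 CPM at ZT9 and 14.5, 1.48, 15.4 and 18.1 CPM at ZT15 (log2 fold change 3.85 ± 0.53 SE, adjusted p = 4.51e-05). Its near-identical neighbour *Hspa1a* read 0.757 to 1.09 CPM at ZT9 and 11.4, 1.06, 13.2 and 13.5 CPM at ZT15. For both genes replicate 2 of ZT15 stood at or next to the ZT9 level while the other 3 mice were over 10 CPM. How reads were divided between these 2 copies is uncertain, so their separate levels are too.

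*Hspa8*, the constitutive HSC70, read 207, 238, 225 and 225 CPM at ZT9 and 560.3, 562, 712 and 679.8 CPM at ZT15 (log2 fold change 1.49 ± 0.19 SE, adjusted p = 1.76e-05). Here replicate 2 did not stand apart, and the ZT12 mice of *Hspa8*, at 266 to 389 CPM, were all above the ZT9 mice. *Dnaja1*, a J-domain partner of HSP70, read 46.7, 37.1, 38.4 and 39.2 CPM at ZT9 and 122, 76.5, 126 and 138 CPM at ZT15 (log2 fold change 1.52 ± 0.17 SE, adjusted p = 4.58e-06). *Chordc1*, an HSP90 co-chaperone with 3 overlapping heat shock elements at its start, rose from 25.5 to 33.3 CPM to between 53.2 and 76.3 CPM (log2 fold change 1.28, adjusted p = 3.13e-05). *Chordc1* and, save *Hsp90ab1* and *Hspd1*, the members in the next 2 sentences were named after their values were seen.

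The other risers were *Hspb1* (log2 fold change 1.42), *Dnajb1* (1.14), *Hsp90aa1* (0.94), the collagen chaperone *Serpinh1* (0.83), *Bag3* (0.76), *Ahsa1* (0.64) and *Hsp90ab1* (0.54, adjusted p = 0.0181). The mitochondrial chaperones *Hspd1* (-0.02, adjusted p = 0.918) and *Hspe1* (-0.01, adjusted p = 0.983), which also hold the element in their windows, and *Hspa4l* (0.52, adjusted p = 0.249) did not pass. *Hspd1* read 429.9 to 551 CPM at ZT9 and 457 to 495 CPM at ZT15. *Hspd1* and *Hspe1* lie head to head and overlap at their starts on opposite strands, so reads there may be divided uncertainly. By summed CPM the list stood at 2197, 2110, 1792 and 1816 at ZT9, 2285, 2150, 1899 and 1928 at ZT12 and 3433, 2533, 3546 and 3478 at ZT15. Every ZT15 mouse thus stood above every ZT12 mouse, with the smallest value in replicate 2.

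The count of heat-shock genes that rose was 13 without replicate 2 of ZT15, 12 without its replicate 1 and 12 without replicate 3 of ZT9. Over the 8 fits that left out 1 mouse it lay between 11 and 13, and it was 11 with lane 3 alone and 9 with the 8 libraries alone. *Hsp90ab1* lost its call in 4 of these fits: without replicates 1, 3 or 4 of ZT15 and without replicate 4 of ZT9 (highest adjusted p = 0.0597). Of 21 chaperones and sensors of the endoplasmic reticulum none passed edgeR's test (5 at an unadjusted p under 0.05, 2 past the threshold of DESeq2; 1 fell without each of the 3 libraries named above), and *Hspa5*, the HSP70 of that compartment, had a log2 fold change of 0.04. None of 17 genes of the integrated stress response passed either (6 at an unadjusted p under 0.05, 0 by DESeq2).

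**Figure D3:**
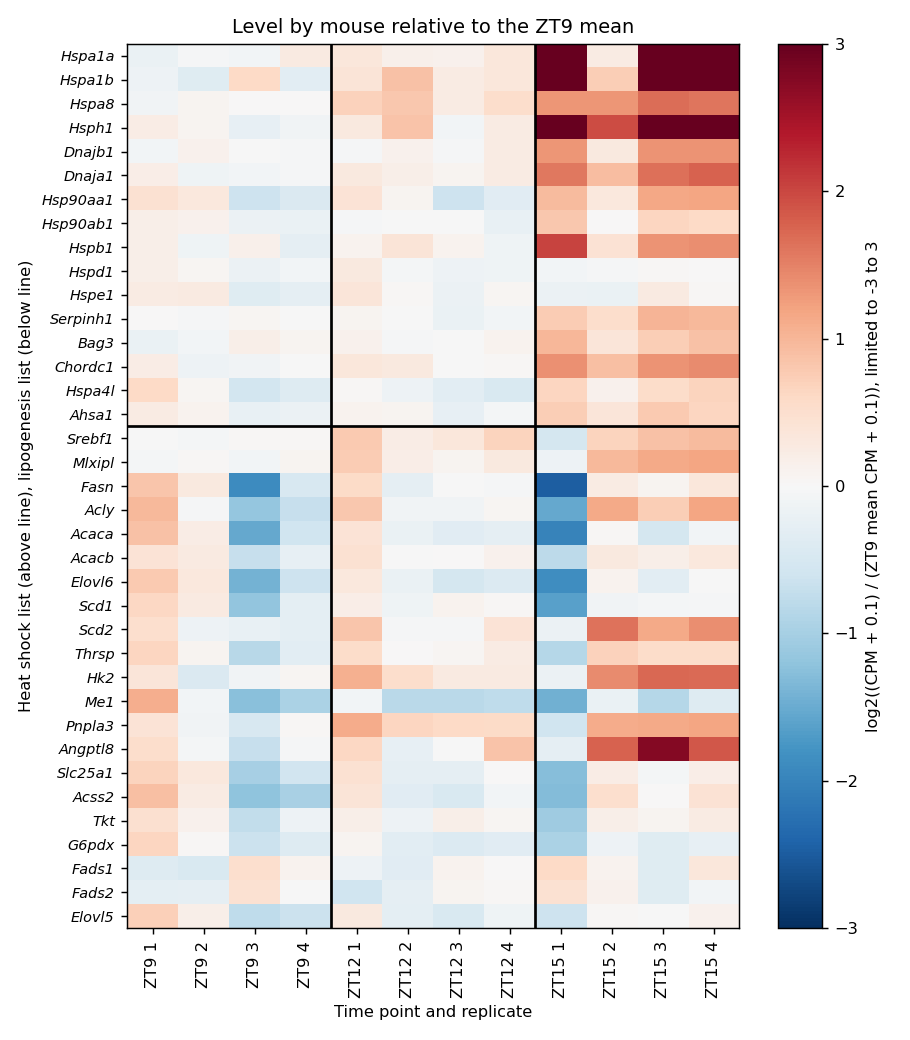
Level of tested genes of the heat shock list (above the black line) and the lipogenesis list (below it, 21 of 22 genes shown) in each mouse, as log2 of CPM over the ZT9 mean with 0.1 added to both; columns are the 12 mice of ZT9, ZT12 and ZT15. The 13 heat-shock genes that rose are red in ZT15 replicates 1, 3 and 4, and replicate 2 is paler for all of these but *Hspa8*, while most lipogenic genes are blue in ZT15 replicate 1 and in ZT9 replicate 3. Colours stop at -3 and 3.

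The pair of RNA-binding proteins known as cold-inducible did not move together. *Cirbp* read 27.5, 30.1, 31.2 and 29.7 CPM at ZT9 and 17.8, 14.8, 11.1 and 12.0 CPM at ZT15, without overlap (log2 fold change -1.09 ± 0.18 SE, adjusted p = 0.000379). *Rbm3* read 28.9 to 36.2 CPM at ZT9 and 36.3 to 47.4 CPM at ZT15 (log2 fold change 0.37, adjusted p = 0.0691). Without replicate 1 of ZT15, and also without replicate 3 of ZT9, *Rbm3* passed the threshold as higher. At ZT12 *Cirbp* stood at 26.2 to 34.1 CPM, above every ZT15 mouse. Body and tissue temperature were not part of these data.

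Among 19 tested glucocorticoid targets, 3 rose and 1 fell (median log2 fold change -0.01), beside 4.1% of all tested genes higher and 3.73% lower. Without replicate 3 of ZT9 there were 4 rises, and with the 8 libraries alone 1 rise and no fall. *Fkbp5*, a co-chaperone of the glucocorticoid receptor, read 7.45, 5.27, 14.2 and 8.28 CPM at ZT9, 15.6, 27.3, 19.3 and 51.8 CPM at ZT12 and 63.8, 47.2, 40.3 and 30.1 CPM at ZT15. It was already above every ZT9 mouse in the ZT12 mice and ended at a log2 fold change of 2.36 ± 0.36 (SE, adjusted p = 0.00016). *Tsc22d3*, which encodes GILZ, rose from 32.6 to 65.7 CPM to between 75.5 and 96.4 CPM (adjusted p = 0.00123), and *Cdkn1a*, a cell-cycle inhibitor, rose by 1.03 on the log2 scale (adjusted p = 0.00615). *Mt2*, a metallothionein, read 42.2, 45.7, 9.25 and 17.8 CPM at ZT9 and 11.5, 8.33, 10.1 and 6.86 CPM at ZT15. Its ZT9 mice split into 2 high and 2 low, and its call (log2 fold change -1.64, adjusted p = 0.0176) was lost without replicate 1 or 2 of ZT9 or replicate 4 of ZT15 (highest adjusted p = 0.0846).

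Of 22 genes of lipogenesis induced by insulin and feeding, 4 rose and none fell, beside 4.1% of all tested genes higher and 3.73% lower. The median log2 fold change of the list was 0.07. *Hk2*, hexokinase of insulin-sensitive tissues, read 339.8, 196, 247 and 273 CPM at ZT9 and 235, 702, 873 and 851 CPM at ZT15 (log2 fold change 1.33 ± 0.31 SE, adjusted p = 0.00842). *Angptl8*, a feeding-induced regulator of lipoprotein lipase, read 33.1, 22.2, 14.2 and 22.5 CPM at ZT9 and 19.2, 78.6, 156 and 84.2 CPM at ZT15 (log2 fold change 1.87 ± 0.47 SE, adjusted p = 0.0125). *Mlxipl*, which encodes the glucose sensor ChREBP, read 343, 367, 337 and 374 CPM at ZT9 and 319.6, 697, 782 and 805 CPM at ZT15 (log2 fold change 0.87, adjusted p = 0.0478). In these 3 genes the 3 other ZT15 mice were above every ZT9 mouse, while replicate 1 of ZT15 lay within or below the ZT9 range.

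The call of *Mlxipl* was close to the threshold and was kept in 1 of the 8 fits that left out 1 mouse, the one without replicate 1 of ZT15. *Angptl8* lost its call without replicate 3 of ZT15 (adjusted p = 0.0791). Without replicate 1 of ZT15 the list had 7 risers, *Srebf1*, *Scd2* and *Pnpla3* besides the 4. Without replicate 3 of ZT9 it had 2, without replicate 2 of ZT15 also 2, with lane 3 alone 1 and with the 8 libraries alone 1.

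The enzymes that make fatty acids varied several-fold between mice of the same time point. *Fasn*, fatty acid synthase, read 29066, 20136, 4413 and 11624 CPM at ZT9 and 2931, 19408, 17314 and 20610 CPM at ZT15 (log2 fold change -0.11 ± 0.48 SE, adjusted p = 0.92). *Scd1*, the stearoyl-CoA desaturase, read 20338 to 70713 CPM at ZT9 and 14810 to 45033 CPM at ZT15 (log2 fold change -0.32 ± 0.32 SE, adjusted p = 0.589). The lowest ZT9 mouse was replicate 3 and the lowest ZT15 mouse replicate 1 for both. In the same ZT15 mouse the 17 genes induced by fasting and FOXO summed to 5292 CPM, against 3056 to 3576 CPM in the other 3. Of these sums *Pck1* alone held 2734 CPM in that mouse and 1304 to 1669 CPM in the other 3.

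Of those 17 fasting and FOXO genes, 3 fell and none rose (median log2 fold change -0.19), beside 3.73% of all tested genes lower and 4.1% higher. *Klf15*, a factor that favours amino acid use in fasting, read 55.1, 63.7, 50.7 and 53.2 CPM at ZT9 and 34.6, 23.2, 25.9 and 19.9 CPM at ZT15 (log2 fold change -1.10 ± 0.22 SE, adjusted p = 0.00271). The groups did not overlap, and replicate 1 was the highest of the ZT15 mice. *Cpt1a*, the gate of fatty acid entry into mitochondria, fell by 0.39 on the log2 scale (adjusted p = 0.0156), a call lost without replicate 2 of ZT9 or replicate 3 of ZT15. *Foxo1* itself fell by 0.46 (adjusted p = 0.0282), with its call lost without replicates 3 or 4 of either time point (highest adjusted p = 0.13). *Pck1*, the abundant PEPCK gene, read 2330 to 4789 CPM at ZT9 and 1304 to 2734 CPM at ZT15 (adjusted p = 0.16). The count of falls was 5 without replicate 1 of ZT15 (*Pdk4* and *Angptl4* in addition), 3 with 1 rise without replicate 3 of ZT9, and 1 with library size in place of TMM, with lane 3 alone or with the 8 libraries alone.

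Regulators of glycogen moved in opposite directions from its enzymes. *Ppp1r3c*, a phosphatase subunit that targets glycogen and activates its synthesis, read 92.1, 46.3, 81.7 and 71.0 CPM at ZT9 and 159, 230.5, 324 and 283 CPM at ZT15, without overlap (log2 fold change 1.77 ± 0.26 SE, adjusted p = 9.11e-05). *Ppp1r3b*, a second subunit of this kind, read 656, 308, 316 and 427 CPM at ZT9 and 504, 1080, 1260 and 1304 CPM at ZT15 (log2 fold change 1.28 ± 0.32 SE, adjusted p = 0.0124). Replicate 1 was the lowest ZT15 mouse for both genes and lay inside the ZT9 range for *Ppp1r3b*, whose call was lost without replicate 2 of ZT9 (adjusted p = 0.0536). *Gys1*, glycogen synthase, fell by 0.30, the primer *Gyg* by 0.29 and the phosphorylase *Pygb* by 0.33 on the log2 scale (adjusted p = 0.0311, 0.0493 and 0.0348). The 3 falls were small and none was past the threshold with lane 3 alone. Each was lost in 4 to 6 of the 8 fits without 1 mouse. For *Gys1* these were the fits without replicates 1, 2 or 4 of ZT9 or 1, 3 or 4 of ZT15, for *Gyg* without replicates 1, 2 or 4 of ZT9 or 2, 3 or 4 of ZT15, and for *Pygb* without replicate 3 of ZT9 or 2, 3 or 4 of ZT15. In all, 2 of 14 glycogen genes rose and 3 fell, beside 4.1% of all tested genes higher and 3.73% lower. The list had 2 rises and 2 falls without replicate 3 of ZT9, 3 rises and 2 falls without replicate 1 of ZT15, and 2 rises and 1 fall without replicate 2 of ZT15. It had 3 rises and 1 fall with library size in place of TMM, and 1 rise and no fall with the 8 libraries alone.

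Of 25 genes of fatty acid oxidation and import, 4 fell and none rose (median log2 fold change -0.06). This stands beside 3.73% of all tested genes lower and 4.1% higher. *Acsl1*, the main acyl-CoA synthetase of adipocytes, read 3039, 3086, 1738 and 2189 CPM at ZT9 and 1179, 1722, 1639 and 1637 CPM at ZT15 (log2 fold change -0.70 ± 0.16 SE, adjusted p = 0.00678). Its groups did not overlap, but the highest ZT15 mouse and the lowest ZT9 mouse were close. *Slc27a2* and *Slc27a1*, fatty acid transport proteins, fell by 1.21 and 0.61 on the log2 scale (adjusted p = 0.00226 and 0.00538) with no overlap between the groups. The fourth was *Cpt1a*. The 4 falls were 3 or 4 in each fit without 1 mouse, 2 with lane 3 alone and 1 with the 8 libraries alone.

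*Ehhadh*, a peroxisomal beta-oxidation enzyme, was named after its values were seen because its ZT9 mice split. It read 273, 268, 22.9 and 38.1 CPM at ZT9, 127, 102, 41.0 and 58.4 CPM at ZT12 and 18.9, 29.0, 23.8 and 23.4 CPM at ZT15. Replicates 1 and 2 of ZT9 were thus far above all ZT15 mice, while replicate 3 lay inside the ZT15 range (log2 fold change -2.66 ± 0.51 SE, adjusted p = 0.00156). *Elovl3*, an elongase of brown fat, had a like split at 64.1, 44.1, 0.941 and 3.81 CPM at ZT9 (adjusted p = 0.33).

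In triglyceride synthesis and storage 2 of 22 genes rose and 3 fell (median log2 fold change -0.08), beside 4.1% of all tested genes higher and 3.73% lower. *Lpin1*, the phosphatidate phosphatase of triglyceride synthesis, read 405, 468, 574 and 596 CPM at ZT9 and 762, 1076, 982 and 1250 CPM at ZT15, without overlap (log2 fold change 0.99 ± 0.18 SE, adjusted p = 0.0011). *Plin3*, a droplet coat protein, rose by 0.55 on the log2 scale (adjusted p = 0.00796). *Plin1*, the main coat protein of adipocyte droplets, read 1223, 1242, 1054 and 1144 CPM at ZT9 and 862, 939, 922 and 932 CPM at ZT15 (log2 fold change -0.35 ± 0.08 SE, adjusted p = 0.0082). The acyltransferases *Gpat4* and *Agpat3* fell by 0.62 and 0.38 (adjusted p = 0.0197 and 0.0186). With lane 3 alone the list had 1 rise and 1 fall, and *Plin1* (adjusted p = 0.0517) and *Plin3* (adjusted p = 0.0723) lost their calls. With the 8 libraries alone it had 1 rise and no fall. It had 4 falls without replicate 3 of ZT9 and 1, that of *Plin1*, without replicate 1 of ZT15. The call of *Gpat4* was lost without replicates 1 or 2 of ZT9 or 1 or 3 of ZT15, and that of *Agpat3* without replicate 2 of ZT9 or 1 of ZT15.

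In lipolysis *G0s2*, the inhibitor of adipose triglyceride lipase, read 142, 299, 229 and 348 CPM at ZT9 and 487, 532, 794 and 537 CPM at ZT15 (log2 fold change 1.21 ± 0.33 SE, adjusted p = 0.0229). *Abhd5*, the activator of the same lipase, read 193, 146, 66.0 and 77.1 CPM at ZT9 and 61.3, 73.4, 69.6 and 65.8 CPM at ZT15 (log2 fold change -0.84 ± 0.26 SE, adjusted p = 0.0433). The groups did not overlap for *G0s2* and did for *Abhd5*. The call of *G0s2* was lost without replicate 1 of ZT9 or 3 of ZT15, and that of *Abhd5* was kept only without replicate 3 or 4 of ZT9. The lipase gene itself, *Pnpla2*, had a log2 fold change of -0.01. Of the other members *Ces1d*, a carboxylesterase with triglyceride lipase activity, rose by 0.41 (adjusted p = 0.000991), and *Aqp7*, a glycerol channel, fell by 0.38 (adjusted p = 0.0348), a call kept only without replicates 1 or 4 of ZT9 or 1 of ZT15. That made 2 rises and 2 falls among 14 genes (median -0.03), beside 4.1% of all tested genes higher and 3.73% lower. No fall was past the threshold with lane 3 alone or with library size in place of TMM. There was 1 fall without replicate 3 of ZT9 or 1 of ZT15 and none without replicate 2 of ZT15, and with the 8 libraries alone no gene of the list passed.

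Lipoprotein lipase supplies the tissue with fatty acids from blood, and 13 genes of its pathway were tested. *Angptl8* alone passed. *Lpl* read 5408, 4998, 4023 and 4334 CPM at ZT9 and 4444, 5135, 4054 and 4311 CPM at ZT15 (log2 fold change -0.06 ± 0.12 SE, adjusted p = 0.799). *Cd36*, a fatty acid carrier, had a log2 fold change of -0.12 (adjusted p = 0.29). *Angptl4*, an inhibitor of the lipase, was named after its values were seen: it read 162, 321, 144 and 139 CPM at ZT9 and 209, 87.6, 54.8 and 63.8 CPM at ZT15 (log2 fold change -0.88 ± 0.44 SE, adjusted p = 0.239). Replicate 1 of ZT15 was above 3 of the ZT9 mice and the other 3 ZT15 mice below all of them, and without replicate 1 the gene passed the threshold as lower. The list also had 1 fall without replicate 3 of ZT9, and no call with lane 3 alone.

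Of 18 tested thermogenic genes, of 21 listed, none rose and *Esrrg*, a nuclear receptor for mitochondrial genes, fell (31.3 to 47.1 CPM at ZT9, 18.9 to 25.6 CPM at ZT15, log2 fold change -0.72 ± 0.15 SE, adjusted p = 0.00399). This was 1 of 18, beside 3.73% of all tested genes that were lower, and nothing is read from it about the list. There were 2 falls without replicate 3 of ZT9 and none with the 8 libraries alone. *Ucp1* (chr8:83290352-83298452) read 2658, 4318, 2057 and 2858 CPM at ZT9, 4061, 3166, 1860 and 1399 CPM at ZT12 and 1134, 1994, 1911 and 2033 CPM at ZT15. All ZT15 mice lay below all ZT9 mice, but the log2 fold change of -0.75 ± 0.28 (SE) did not pass the threshold (adjusted p = 0.104). *Gk*, glycerol kinase, had a log2 fold change of -1.35 (adjusted p = 0.0558), *Dio2* of -1.01 (adjusted p = 0.396), *Ppargc1a* of -0.04 and *Adrb3* of -0.23. None of 18 immediate early genes of cAMP signalling passed edgeR's test (1 at an unadjusted p under 0.05, 0 by DESeq2). Replicate 1 of ZT15 had the lowest summed level of both the thermogenic genes (4745 CPM against 6573 to 6634) and the 8 brown adipocyte markers (3486 CPM against 4945 to 5024).

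Of 15 mitochondrially encoded genes, both ribosomal RNAs rose, 2 protein-coding genes fell and 11 did not pass. Over all tested genes 4.1% were higher and 3.73% lower. The log2 fold change was above 0 for 8 of the 15. *mt-Rnr2* (chrM:1094-2675), the large ribosomal RNA, read 2120, 2101, 1925 and 2168 CPM at ZT9, 1780 to 2256 CPM at ZT12 and 3821, 3942, 4507 and 5296 CPM at ZT15. *mt-Rnr1* (chrM:70-1024), the small one, read 1251, 1326, 1004 and 1182 CPM at ZT9, 1010 to 1343 CPM at ZT12 and 2048, 2317, 2647 and 2885 CPM at ZT15. *mt-Rnr2* rose 2.11-fold (log2 fold change 1.08 ± 0.17 SE, adjusted p = 0.000334) and *mt-Rnr1* 2.08-fold (1.06 ± 0.15 SE, adjusted p = 9.11e-05) with no overlap. For both, every ZT12 mouse lay below every ZT15 mouse. The part of library preparation in the levels of these ribosomal RNAs was not tested. *mt-Nd1* and *mt-Nd5*, subunits of complex I, fell by 0.32 and 0.47 on the log2 scale (adjusted p = 0.014 and 0.0217). *mt-Nd1* read 22247, 24081, 24567 and 26959 CPM at ZT9 and 19156, 21361, 18969 and 19031 CPM at ZT15. Its call was lost without replicate 4 of ZT9, that of *mt-Nd5* without replicates 1, 3 or 4 of ZT15, and neither passed with lane 3 alone. *mt-Co1*, a subunit of complex IV, had a log2 fold change of -0.02 and did not pass.

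Of 22 tested genes of the extracellular matrix, 6 fell and none rose (median log2 fold change -0.40), beside 3.73% of all tested genes lower and 4.1% higher. *Col4a1*, a basement membrane collagen, read 431, 433, 457 and 392 CPM at ZT9, 364, 332, 349.7 and 327 CPM at ZT12 and 338, 292, 298 and 318 CPM at ZT15 (log2 fold change -0.46 ± 0.08 SE, adjusted p = 0.000979). *Col15a1*, another collagen of basement membranes, fell by 0.94 (adjusted p = 0.00095), *Col5a3* by 0.76 (adjusted p = 0.00106) and the crosslinking enzyme *Loxl1* by 1.31 (adjusted p = 0.00462). None of these 4 overlapped between the groups, and *Col4a1*, *Col15a1* and *Col5a3* had ZT12 means between those of ZT9 and ZT15. *Mmp14*, a membrane protease, fell by 0.74 (adjusted p = 0.0172), a call lost without replicate 3 of ZT9 or 3 or 4 of ZT15. The sixth was *Col4a2*, which overlaps *Col4a1* at its start on the opposite strand, so reads there may be divided uncertainly. The count was 13 without replicate 1 of ZT15, 5 with 1 rise without replicate 3 of ZT9 and 4 with lane 3 alone. Summed fibroblast markers (6 genes) stood at 672 to 1228 CPM at ZT9 and 411 to 995 CPM at ZT15 with no member past the test (3 at an unadjusted p under 0.05). Without replicate 1 of ZT15, where the matrix count was 13, 2 of the 6 fibroblast markers fell (*Pdgfra* and *Col3a1*, the second also on the matrix list). Their part in the falls was not tested. In bulk tissue, fewer cells of a type and less RNA per cell cannot be told apart.

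**Figure D4:**
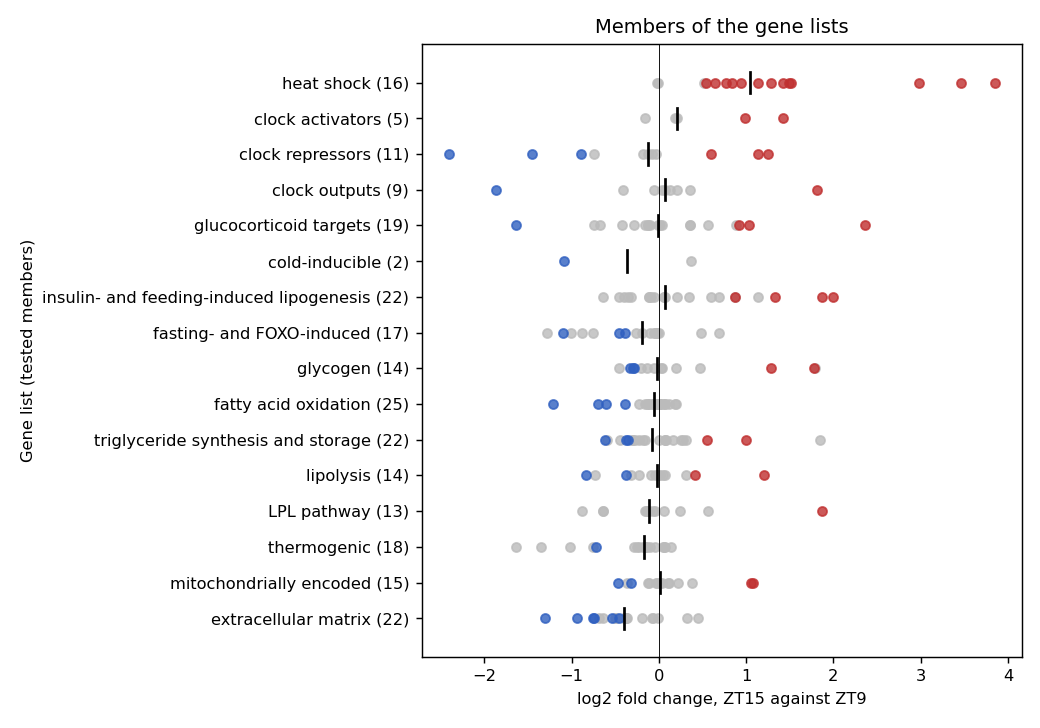
Log2 fold change of ZT15 over ZT9 for each tested member of 16 gene lists, 1 point per gene; red and blue are genes past the threshold as higher and lower, grey did not pass, and black bars are medians. The heat shock list stands furthest to the right, at a median of 1.04, and the extracellular matrix list lies to the left, at -0.40.

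Among the remaining lists single genes passed, beside 4.1% of all tested genes that were higher and 3.73% that were lower. *Fdft1*, squalene synthase, was the only one of 22 cholesterol synthesis genes and rose by 0.86 on the log2 scale (adjusted p = 0.00385). *Slc38a2*, an amino acid transporter, was the only one of 15 in glutamine and amino acid handling (0.46, adjusted p = 0.00147), and *Nampt*, the enzyme of NAD synthesis, the only one of 15 adipokines and secreted factors (0.59, adjusted p = 0.00362). *Hk2* was the only one of 27 genes of glucose uptake and glycolysis, and with lane 3 alone none passed (*Hk2* adjusted p = 0.057). Without replicate 1 of ZT15 *Slc2a4*, *Hk2* and *Gapdh* rose and *Pdk4* fell, and without replicate 3 of ZT9 there was 1 rise and 1 fall. Without replicate 1 of ZT15 the cholesterol list had 3 rises, the amino acid list 2 (*Slc38a2* and *Slc25a44*) and the secreted factors 1 rise and 1 fall (*Nampt* and *Angptl4*). Without replicate 3 of ZT9 the cholesterol list had 1 rise and 1 fall. Of 18 genes of insulin signalling *Trib2* rose (0.50, adjusted p = 0.0276) and *Foxo1* fell, with lane 3 alone neither passed, without replicate 1 of ZT15 there was no rise, and without replicate 3 of ZT9 no fall. The call of *Trib2* was kept only without replicate 3 or 4 of ZT9 or replicate 2 of ZT15.

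The genes with the highest fold changes among those without overlap and over 1 CPM included several that no list held. *Cyp2b10*, a drug-metabolizing cytochrome P450, read 0.932, 2.49, 2.77 and 1.51 CPM at ZT9, 3.72, 11.3, 11.0 and 18.7 CPM at ZT12 and 54.4, 26.2, 12.9 and 12.1 CPM at ZT15 (log2 fold change 3.77 ± 0.62 SE, adjusted p = 0.000447). The ZT12 mice lay above all ZT9 mice and overlapped the ZT15 mice. The gene belongs to a family of similar copies whose reads may be divided uncertainly. *P4ha1*, a prolyl hydroxylase that matures collagen, read 13.3, 12.1, 12.8 and 9.49 CPM at ZT9 and 66.2, 23.0, 42.8 and 48.6 CPM at ZT15 (log2 fold change 1.92, adjusted p = 3.7e-05). Within ZT15 *P4ha1* was lowest in replicate 2, the mouse with the lowest heat-shock sum, and at ZT12 it read 12.4 to 14.9 CPM.

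*Smtnl2* (log2 fold change 2.43, adjusted p = 0.00114), *Phyhip* (2.82, adjusted p = 0.00559), *Lonrf3* (2.42, adjusted p = 0.000551) and *Hyls1* (1.95, adjusted p = 0.00699) also rose. *Smtnl2* read 2.37 to 7.74 CPM at ZT9 and 22.6 to 33.7 CPM at ZT15. Of these *Phyhip* and *Lonrf3* were under 1 CPM in every ZT9 mouse. The calls of *Cyp2b10*, *P4ha1* and these 4 genes were kept in all 8 fits without 1 mouse.

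Among the falls, *Slc25a34*, a mitochondrial carrier of unassigned substrate, read 7.80, 20.8, 10.8 and 13.0 CPM at ZT9 and 2.89, 1.71, 2.33 and 2.76 CPM at ZT15 (log2 fold change -2.43 ± 0.62 SE, adjusted p = 0.0149), a call lost without replicate 2 of ZT9 (adjusted p = 0.0572). *Acr* (-1.70, adjusted p = 0.00726), *Tgfbr3l* (-1.41, adjusted p = 0.00498), *Gm26889* (-2.25, adjusted p = 0.00335) and *AC117700.1* (-2.28, adjusted p = 0.00583) were scarce, at 0.483 to 6.31 CPM in the ZT9 mice. *Prkar2b*, a regulatory subunit of protein kinase A, was among the largest falls in CPM, from a mean of 1477 to 1052 CPM (log2 fold change -0.49, adjusted p = 0.0187). Its call was lost without replicates 1 or 2 of ZT9 or 1 of ZT15. *Chrnb4* (-1.83, adjusted p = 0.0463) kept its call only without replicate 3 or 4 of ZT9, with an adjusted p of 0.241 without replicate 1 of ZT9, where it read 3.32 CPM against 0.786 to 1.22 CPM in the other 3.

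Some falls went with 1 mouse that was rich in macrophage RNA. *Adgre1*, which encodes F4/80, read 5.12, 2.43, 57.5 and 4.41 CPM at ZT9 and 1.75 to 4.57 CPM at ZT15 (log2 fold change -2.41, adjusted p = 0.0166). Without replicate 3 of ZT9 its adjusted p was 0.682, and without replicate 3 of ZT15 it was 0.0632. *Rac2*, a GTPase of blood cells, read 3.32, 2.78, 23.1 and 2.72 CPM at ZT9 and 1.86 to 2.70 CPM at ZT15, and its adjusted p went from 0.0343 to 0.671 without replicate 3 of ZT9. It was also lost without each single ZT15 mouse. Of 6 macrophage markers *Adgre1* was the only one past the test, with none past it without replicate 3 of ZT9 or with lane 3 alone, and without replicate 1 of ZT15 *Lyz2* was lower as well. Of 7 lymphocyte markers *Cd79b* and *Ighm* were lower at ZT15 (-1.53 and -1.10, adjusted p = 0.0258 and 0.00903), beside 3.73% of all tested genes. The 7 summed to 26.4, 10.7, 29.2 and 19.0 CPM at ZT9 and 11.1, 11.7, 8.57 and 7.98 CPM at ZT15. *Cd79b* lost its call without replicate 3 of ZT9 or 2 or 3 of ZT15, and each of these first 2 left 1 lymphocyte call.

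With all libraries, markers of other cells gave no call with edgeR: 0 of 5 for white adipocytes, 0 of 12 for skeletal muscle, 0 of 5 for red blood cells, 0 of 5 for endothelium, 0 of 6 for fibroblasts and 0 of 4 for Schwann cells. DESeq2 gave 0 in each, and at an unadjusted p under 0.05 there were 2 of endothelium and 3 of fibroblasts. The brown adipocyte markers gave 0 of 8 by both tools, with 1 at an unadjusted p under 0.05. All 12 muscle markers had a positive fold change, with a median log2 fold change of 1.93. Within ZT15 the summed muscle markers read 7040, 1355, 4554 and 743 CPM, and the summed heat-shock genes 3433, 2533, 3546 and 3478 CPM. The part of muscle RNA in the heat-shock values was not tested.

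**Figure D5:**
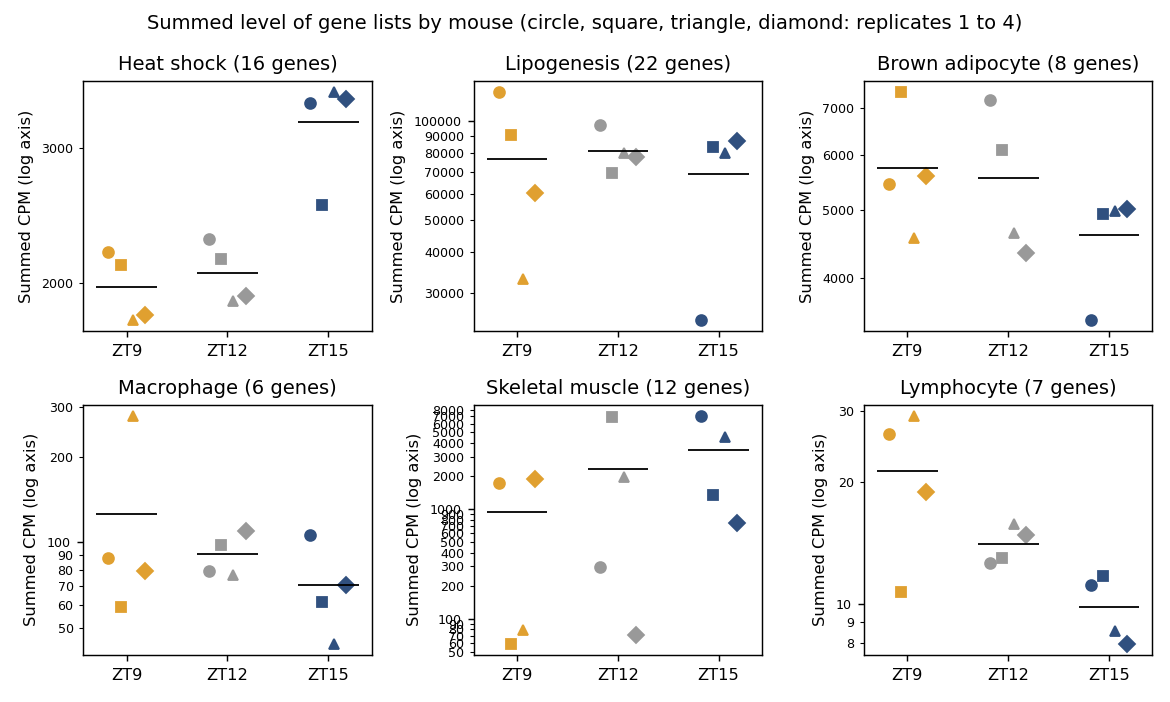
Summed CPM (log axes, which differ between panels) of 6 gene lists in each mouse at ZT9, ZT12 and ZT15; symbols are replicates 1 to 4 and bars are means. The heat-shock sum was higher in the 4 ZT15 mice than in any other, ZT15 replicate 1 stood lowest in lipogenesis and brown adipocyte markers, ZT9 replicate 3 stood highest in macrophage markers, and muscle markers spread widely within each time point.

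The last question was whether the change came before or after lights off. No gene passed the threshold between ZT9 and ZT12 in edgeR's test (1047 at an unadjusted p under 0.05), and 472 (3.04%) did between ZT12 and ZT15, of which 342 were among the 1213. These steps share the ZT12 mice, so the difference of the steps was tested in the same fit, and 3 genes (0.0193%) passed it, with 1220 at an unadjusted p under 0.05. The ZT12 mean lay between the ZT9 and ZT15 means for 1049 of the 1213 genes and for 45.3% of all tested genes. Choosing genes by their difference between ZT9 and ZT15 itself raises the first count, and nothing is read from it.

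The 3 genes whose steps differed were lower at ZT12 than on either side. *Ets1*, a transcription factor, read 73.4, 67.8, 77.1 and 72.4 CPM at ZT9, 58.2, 56.2, 57.5 and 56.6 CPM at ZT12 and 85.2, 75.2, 83.5 and 83.4 CPM at ZT15, and its later step exceeded its earlier one by 0.87 on the log2 scale. *Fam84b* read 24.2 to 27.7, 19.0 to 22.7 and 29.3 to 45.4 CPM at the 3 time points (difference of steps 1.28), and *Phf8*, a histone demethylase, read 19.7 to 22.5, 14.9 to 19.0 and 22.1 to 24.0 CPM (difference of steps 0.67). The ZT12 mice did not overlap either neighbour for all 3. Only *Fam84b* also differed between ZT9 and ZT15 (log2 fold change 0.52, adjusted p = 0.00997). The count of such genes was 0 with lane 3 alone and ran from 0 to 26 when single mice were left out.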

How the data were processed

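RNA was taken from iBAT of 32 mice, 4 at each of 8 time points, with 1 stranded paired-end library per mouse. The authors checked reads with MultiQC, aligned them with GSNAP to mm10 and counted them per gene with HTSeq (0.6.1); the deposited values are raw counts for 50686 genes, and whether counting used strand is not given in the sources used here. The time points were sequenced in 3 lanes, with ZT9, ZT12 and ZT15 together in lane 3. Samples were grouped by the time point in their labels.

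Genes were filtered by time point with edgeR (4.0.16, R 4.3.3), which left 15505, holding at least 99.9% of the counts, and scaled with TMM. The quasi-likelihood test was fitted to all 32 libraries, which share 1 estimate of the spread, and p-values were adjusted over all tested genes by the Benjamini-Hochberg method with a threshold of 0.05. CPM are counts relative to the scaled library size, not corrected for gene length, and are compared only within a gene. The deposited counts limit precision for scarce genes. The difference of the steps was a contrast in the same fit. The mitochondrial share was compared by an exact permutation test (70 splits). DESeq2 (1.42.0), other scalings, filters, libraries, a 1.5-fold null, a replicate block and omission of single mice were alternatives. Figures were drawn with matplotlib (3.10.9). Coordinates came from GENCODE M21 (GRCm38), which may differ from the annotation the authors counted on.

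Genes named were, among those called without overlap at a mean of at least 1 CPM, the 10 highest and 10 lowest by fold; the 5 largest rises and falls in CPM; up to 4 called members per direction and the 2 members with the highest CPM of each of 33 lists; any clock or thermogenic list member; and genes whose steps differed. 2 genes that the rule names are not reported here. Others were chosen after their values were seen. The members and lists were chosen with earlier results of these data known. The lowest chi-square per gene between replicates, 8.13, lay above sampling noise, so no library was counted as a repeat. Each library came from a separate mouse. The p-values thus rest on a spread between animals, pooled within time points over all 32 libraries and not over the 8 compared alone. Promoter windows came from RefSeq, with 1 chromosome left out.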

Additional observations from a re-analysis of the deposited data

Results flagged for a closer look

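Within 130 groups of 4 mice looked at, the gap of the furthest mouse to its nearest neighbour was taken as a share of the group's range. In 18 groups it exceeded Dixon's 95% critical value for 4 values. For 1 group taken alone chance gives about 1 in 20. The groups share mice and genes, and some genes were named by these same values, so 18 of 130 is not set against it. At ZT9 the shares were 0.8294 for *Chrnb4* (replicate 1), 0.971 for *Rac2* (replicate 3), 0.926 for the summed fasting and FOXO genes (replicate 2) and 0.869 for the summed macrophage markers (replicate 3). At ZT15 replicate 1 stood apart in *Acsl1* (0.842), the summed lipogenic genes (0.889), thermogenic genes (0.968), lipolysis genes (0.964), glycolytic genes (0.931), glycogen genes (0.844) and brown adipocyte markers (0.948), in the mitochondrial share (0.882) and in total counts (0.907). Replicate 2 of ZT15 stood apart in *Hsph1* (0.928), *Ciart* (0.897), *mt-Nd1* (0.922) and the summed heat-shock genes (0.889), and replicate 3 in the summed endoplasmic reticulum chaperones (0.939).

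The change from ZT12 to ZT15 exceeded that from ZT9 to ZT12 past the threshold of edgeR's test for *Fam84b* by 1.28, for *Ets1* by 0.87 and for *Phf8* by 0.67 on the log2 scale (adjusted p = 0.0398 for each of *Fam84b*, *Ets1* and *Phf8*).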

How the results depend on the processing

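The count of 1213 genes that differed between ZT15 and ZT9 was 27 (22 higher, 5 lower) against a 1.5-fold null, 182 with the 8 libraries alone, 499 (297 higher, 202 lower) with lane 3 alone and 777 of 30586 without a filter. It lay between 680 (without replicate 4 of ZT15) and 1405 (without replicate 3 of ZT9) when 1 mouse was left out, with 698 without replicate 2 of ZT9 and 758 without replicate 3 of ZT15. It was 1398 with DESeq2, 1209 with its size factors, 1180 without mitochondrially encoded genes and 1033 with library size alone, which moved the split from 52.3% to 62.1% higher and the median log2 fold change by 0.025. An alternative chosen after seeing the data, without replicate 3 of ZT9 and replicate 1 of ZT15, gave 1232, and 912 of the 1213 genes remained. Replicate numbers did not pair the mice: same-numbered ZT9 and ZT15 libraries correlated at -0.00045, 0.330, -0.439 and -0.447 in their deviations, and none correlated best with its own number. With the replicate block the count was 1133 (607 higher, 526 lower), and the count of genes whose steps differed was 8.

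The 3 genes whose steps differed were 0 with lane 3 alone, 0 with library size, 1 without a filter, 1 without replicate 3 of ZT9 and replicate 1 of ZT15, and 0 to 26 when 1 mouse was left out, with 26 without replicate 2 of ZT15. The mitochondrial share differed by -1.16 percentage points, and by -2.25 to -0.123 without single mice. Of 159 named genes, 43 lost their call with the 8 libraries alone, 26 with lane 3 alone, 62 against the 1.5-fold null, 8 without a filter, 7 with library size and 7 to 20 without 1 mouse. None of these alternatives reversed a called direction. The stricter null lowers the counts by construction. For the other alternatives, those with fewer libraries included, the cause was not tested.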
